A study of Mus musculus with 8 samples.

Results

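The Myc, Max and Mxd network was followed in CD8 T cells that had entered melanomas in mice, across donor genotype and the Tim3 sort. Its 6 genes, Myc, Max, Mxd1, Mxd4, Mxi1 and Mnt, were picked by symbol from a count table of 24976 genes, and 6 of 6 were among the 13073 genes that passed the filter on low counts. The hosts were Rag2-/- mice, which cannot form T or B cells. They carried subcutaneous tumours of B16-OVA, a melanoma line that makes the antigen ovalbumin, and were given CD8+ T cells 10 days after the tumour cells. Donor cells came from Cd8Cre NR4a1flox/flox NR4a2flox/flox OT-ITg/+ mice, called dKO here, or from WT mice. OT-I is a transgenic T cell receptor for ovalbumin, and whether the WT donors had it is not stated, so receptor and genotype cannot be told apart. The Cre is named for Cd8, which limits deletion to cells that have used that gene. Tumour-infiltrating CD3e+CD8+ cells taken 10 days after transfer were sorted on the inhibitory receptors PD1 and Tim3. The 4 groups were labelled dKO PD1+Tim3+, WT PD1+Tim3+, labelled dKO PD1+Tim3- and WT PD1+Tim3-, with 2 libraries each and 8 in all. Each library held the cells of 1 implanted mouse per the labels, which do not state whether both sorts came from the same mice.

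The smallest library, replicate 2 of labelled dKO PD1+Tim3-, held 1944999 counts and the largest, replicate 2 of WT PD1+Tim3+, held 13418762. Havcr2, the gene of Tim3, stood at 56.6 to 58.2 CPM (counts scaled to a common library size) in labelled dKO PD1+Tim3+ and 41.8 to 43.6 CPM in WT PD1+Tim3+, and at 2.28 to 3.62 CPM in the PD1+Tim3- libraries. Cd8a stood at 854 to 1223 CPM and Cd3e at 274 to 368 CPM over the 8 libraries. Nr4a1, a targeted gene, was not lower where the label says it was deleted: it had 1194 and 1175 CPM in labelled dKO PD1+Tim3+ against 803 and 789 CPM in WT PD1+Tim3+, and 1331 and 1489 CPM in labelled dKO PD1+Tim3- against 979 and 824 CPM in WT PD1+Tim3-. Nr4a2 stood at 929 to 1034 CPM in all 8 libraries. The sources used here do not name the floxed exons, so counts over a whole gene may not show the deletion, and each genotype direction in this text is that of the labels. Lists of markers of other cells were summed in each library. The 7 melanoma genes came to 18.0 to 22.2 CPM over the 8 libraries, most of it Tyr at 14.5 to 17.1 CPM, with Sox10 at 0 CPM in 7 of 8. The 6 macrophage genes found in the table came to 8.92 to 22.2 CPM, most of it Cd68 at 5.77 to 10.9 CPM and Cd14 at 3.15 to 10.8 CPM, with Csf1r at 0.905 CPM or less. Fibroblast and endothelial genes came to 21.5 to 37.3 CPM, nearly all Pecam1, while dendritic cell genes came to 3.73 to 6.33 CPM and B cell genes to 0.928 to 2.53 CPM. Lists for CD4 T cells, erythroid cells and natural killer (NK) cells differed between groups and are given beside the results.

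The 6 proteins form one network of basic helix-loop-helix leucine zipper factors. MYC binds DNA as a pair with MAX and raises transcription, above all of genes for ribosome production, protein synthesis and metabolism. MXD1, MXD4, MXI1 and MNT also pair with MAX, bind the same E-box sequence and recruit the SIN3 corepressor, so that they oppose MYC at shared targets. In CD8 T cells, antigen receptor and interleukin-2 signals induce Myc, which drives growth after activation. MXD proteins are known from differentiating cells that leave the cell cycle, whereas MNT and MAX are present broadly. In GENCODE M21 on GRCm38, Myc lies at chr15:61985391-61990374 on the plus strand and Max at chr12:76937269-76962201 on the minus strand. Of the antagonists, Mxd1 lies at chr6:86647042-86669161 and Mxd4 at chr5:34173883-34187720 on the minus strand, and Mxi1 at chr19:53310518-53375810 and Mnt at chr11:74830920-74845725 on the plus strand.

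The E-box read by these pairs is CACGTG, which is its own reverse complement. RefSeq promoters of GRCm38.p6, from 250 bases before to 50 bases after a transcription start, were matched by symbol for 5 of the 6 genes, all but Myc, with 7 promoters in all, of which 3 belong to Mxi1. The motif was found in the promoters of Mxd4, Max and Mnt, and in none of the other 4. For scale, 7.15% of 32851 promoters of the same length held it, or 8.09% of 27025 genes. The 3 promoters are shown, 5′ to 3′ on the strand of the gene, because they put a binding sequence of the network on members of the network itself. Capitals mark the E-box. They lie at chr5:34187661-34187960 on the minus strand for Mxd4, chr12:76962199-76962498 on the minus strand for Max and chr11:74830674-74830973 on the plus strand for Mnt.

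Mxd4: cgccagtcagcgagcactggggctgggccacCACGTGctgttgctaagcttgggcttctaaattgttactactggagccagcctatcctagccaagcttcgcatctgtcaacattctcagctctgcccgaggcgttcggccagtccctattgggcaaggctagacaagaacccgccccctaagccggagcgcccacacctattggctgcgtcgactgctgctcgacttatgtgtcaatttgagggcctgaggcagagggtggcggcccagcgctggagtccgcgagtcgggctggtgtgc
Max: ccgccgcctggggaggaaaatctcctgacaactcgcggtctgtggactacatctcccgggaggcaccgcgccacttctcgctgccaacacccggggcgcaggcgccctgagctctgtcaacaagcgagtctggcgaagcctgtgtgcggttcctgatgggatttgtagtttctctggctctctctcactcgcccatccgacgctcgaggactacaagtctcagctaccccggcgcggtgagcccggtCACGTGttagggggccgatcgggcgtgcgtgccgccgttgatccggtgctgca
Mnt: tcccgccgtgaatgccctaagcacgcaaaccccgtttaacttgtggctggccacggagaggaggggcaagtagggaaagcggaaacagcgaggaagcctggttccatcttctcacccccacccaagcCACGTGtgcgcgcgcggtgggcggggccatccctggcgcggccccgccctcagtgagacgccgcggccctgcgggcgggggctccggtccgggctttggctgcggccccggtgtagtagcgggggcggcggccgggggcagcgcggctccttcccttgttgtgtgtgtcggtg

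The first base of the motif was 219 bases before the start in Mxd4, 123 bases before it in Mnt and 3 bases before it in Max. A match is a string of letters and shows no binding. The monomer motif of NR4A receptors, AAAGGTCA, was looked for on both strands and was in 0 of the 7 promoters, against 1.51% of all promoters. The files hold no measure of binding or chromatin.

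Myc fell and Mxi1 rose in PD1+Tim3+ relative to PD1+Tim3- cells of each genotype, and Mxi1 had the largest change of the 6. Mxd4 rose in WT, with an adjusted p of 0.0809 in labelled dKO cells, and Mxd1 rose in labelled dKO cells, with an adjusted p of 0.0998 in WT. Both passed when the genotypes were averaged, a comparison added after the data were seen. Max and Mnt did not pass in either genotype or in the average. PD1+Tim3- cells hold the less differentiated part of the exhausted pool and PD1+Tim3+ cells its terminal part. A gene is called where the Benjamini-Hochberg adjusted p of edgeR's quasi-likelihood test, over 13073 genes, is under 0.05, and changes are log2 fold changes with their standard error (SE). In the libraries labelled dKO, 3 of the 6 genes were called, against 9.93% of all genes tested, and in WT 3 of 6, against 17%. With the genotypes averaged, 4 of 6 were called, against 22.8% of all genes.

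Myc, the activator of the network, had 55.3 and 56.5 CPM in labelled dKO PD1+Tim3+, against 101.7 and 90.8 CPM in labelled dKO PD1+Tim3-. WT cells had 57.6 and 61.5 CPM in PD1+Tim3+ and 73.9 and 86.7 CPM in PD1+Tim3-. The 4 PD1+Tim3+ libraries lay in a narrow band below all 4 PD1+Tim3- libraries, which were spread more widely. Myc fell by 0.79 ± 0.12 (SE) in the labelled dKO cells, adjusted p 0.00308, and by 0.42 ± 0.11 in WT, adjusted p 0.0253. Averaged over the genotypes it fell by 0.61 ± 0.08, adjusted p 5.18e-04, with means of 57.7 CPM in PD1+Tim3+ and 88.3 CPM in PD1+Tim3- cells (n = 4 libraries each). The labelled dKO call was lost without replicate 1 of labelled dKO PD1+Tim3-, adjusted p 0.0784. The WT call was lost without either WT PD1+Tim3+ library, adjusted p 0.157 without replicate 1 and 0.107 without replicate 2, without replicate 2 of WT PD1+Tim3-, 0.148, and with DESeq2, 0.132. The averaged call held in each of these settings.

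**Figure D1:**
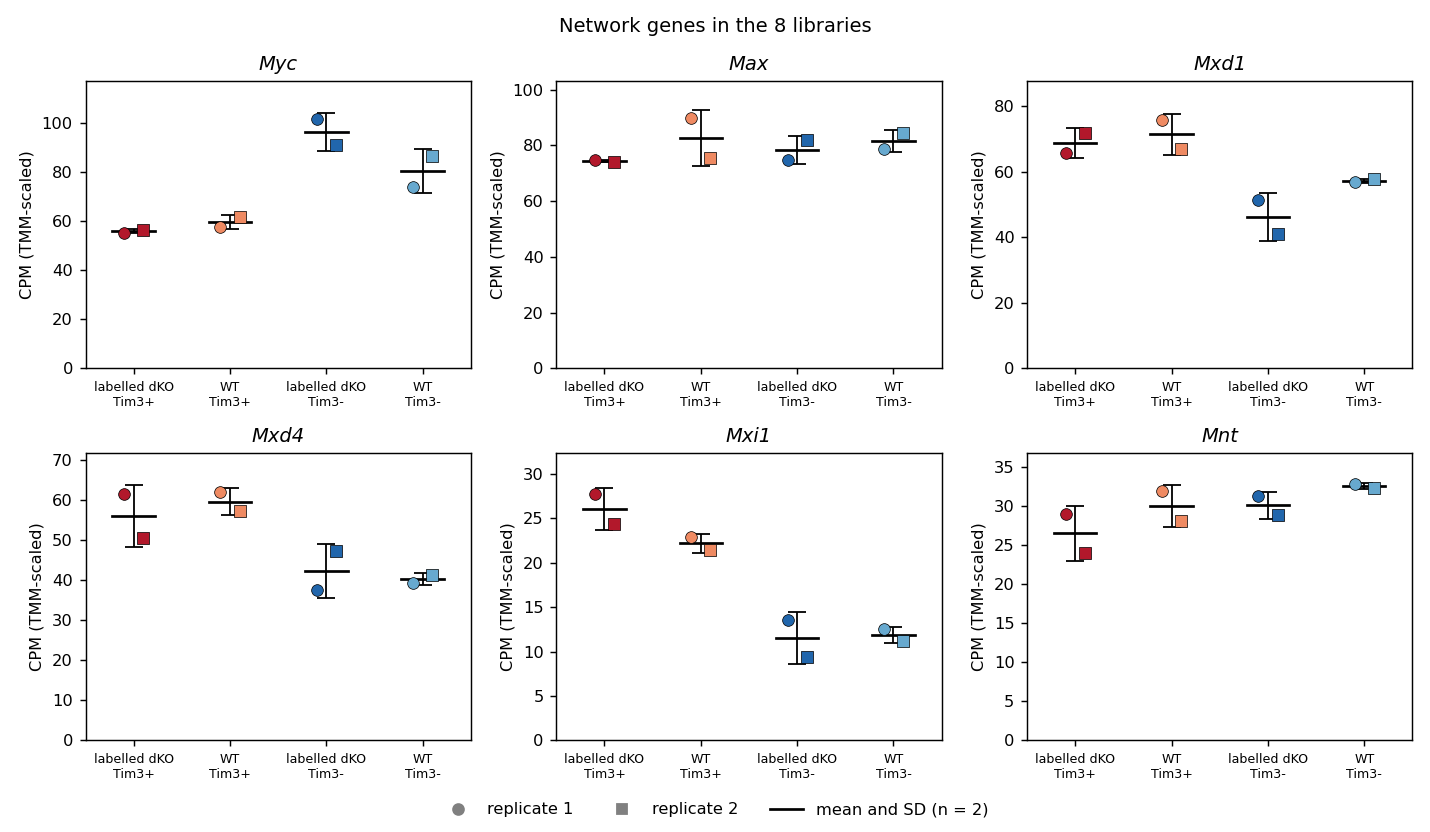
Level of the 6 network genes in each of the 8 libraries, in TMM-scaled CPM on axes that start at 0, with circles for replicate 1, squares for replicate 2 and bars for mean and SD (n = 2). Myc sits at 55.3 to 61.5 CPM in the PD1+Tim3+ libraries and at 73.9 to 101.7 CPM in the PD1+Tim3- libraries, while Mxi1 is at 21.4 to 27.7 CPM and 9.45 to 13.6 CPM.

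Mxi1 encodes a MAX partner of the MXD family that represses through SIN3. It had 27.7 and 24.4 CPM in labelled dKO PD1+Tim3+, against 13.6 and 9.45 CPM in labelled dKO PD1+Tim3-. The WT libraries had 23.0 and 21.4 CPM in PD1+Tim3+ and 12.5 and 11.2 CPM in PD1+Tim3-. No PD1+Tim3+ library overlapped a PD1+Tim3- library. The gene rose by 1.08 ± 0.18 in the labelled dKO cells, adjusted p 0.00659, by 0.89 ± 0.16 in WT, adjusted p 0.00545, and by 0.98 ± 0.12 over both genotypes, adjusted p 3.55e-04. The WT call failed without replicate 1 of WT PD1+Tim3+, with adjusted p 0.0524, and held in the other alternatives run. The gene was also the least abundant of the 6, with 18 counts in the smallest library, replicate 2 of labelled dKO PD1+Tim3-. Its exons share 194 bases with Gm10197 on the opposite strand, and the sources used here do not give the strand setting of the counting, so part of its count is uncertain.

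Mxd4, another repressor partner of MAX, stood at 61.6 and 50.6 CPM in labelled dKO PD1+Tim3+, against 37.6 and 47.2 CPM in labelled dKO PD1+Tim3-. In WT it stood at 62.1 and 57.3 CPM in PD1+Tim3+, against 39.2 and 41.5 CPM in PD1+Tim3-. The sorts did not overlap in either genotype, but the gap was small in the labelled dKO cells. Mxd4 rose by 0.56 ± 0.13 in WT, adjusted p 0.0136, while its change in the labelled dKO cells was 0.44 ± 0.14, adjusted p 0.0809. Over both genotypes it rose by 0.50 ± 0.10, adjusted p 0.00354. Without replicate 2 of labelled dKO PD1+Tim3+ the labelled dKO change was called too, adjusted p 0.0270, and without the low-count filter likewise, 0.0434. The WT call was lost without WT PD1+Tim3+ replicate 1, adjusted p 0.101, or replicate 2, 0.0675, without WT PD1+Tim3- replicate 1, 0.120, and with DESeq2, 0.0684. Antisense Gm42846 covers 514 exonic bases of Mxd4, with the same doubt about strand.

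Mxd1 encodes the MAD protein of the family, known for its induction as cells differentiate. Its level was 65.5 and 71.9 CPM in labelled dKO PD1+Tim3+, against 51.4 and 40.9 CPM in labelled dKO PD1+Tim3-, and 75.8 and 66.8 CPM in WT PD1+Tim3+, against 56.7 and 57.6 CPM in WT PD1+Tim3-. The 4 PD1+Tim3+ libraries were above the 4 PD1+Tim3- libraries. Mxd1 rose by 0.54 ± 0.13 in the labelled dKO cells, adjusted p 0.0301, whereas the WT change of 0.31 ± 0.12 had an adjusted p of 0.0998. Over both genotypes it rose by 0.43 ± 0.09, adjusted p 0.00571. The labelled dKO call was lost without labelled dKO PD1+Tim3- replicate 1, adjusted p 0.0917, or replicate 2, 0.167, without replicate 2 of labelled dKO PD1+Tim3+, 0.0783, and with DESeq2, 0.0914. It was also lost with the replicate number added to the fit, over all groups or within each genotype.

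Max and Mnt, the common partner and the broadly present antagonist, were not called in either genotype or over both. Max had 74.6 and 74.1 CPM in labelled dKO PD1+Tim3+, 89.8 and 75.5 CPM in WT PD1+Tim3+, 74.9 and 81.9 CPM in labelled dKO PD1+Tim3- and 78.9 and 84.4 CPM in WT PD1+Tim3-. Its PD1+Tim3+ and PD1+Tim3- libraries overlapped when the genotypes were pooled. The log2 change of Max was -0.07 ± 0.12 in labelled dKO cells, adjusted p 0.802, and 0.01 ± 0.11 in WT, adjusted p 0.958. Mnt had 29.0 and 24.0 CPM in labelled dKO PD1+Tim3+, 32.0 and 28.1 CPM in WT PD1+Tim3+, 31.3 and 28.9 CPM in labelled dKO PD1+Tim3- and 32.8 and 32.3 CPM in WT PD1+Tim3-. Its changes were -0.20 ± 0.15 in labelled dKO cells, adjusted p 0.458, and -0.13 ± 0.13 in WT, adjusted p 0.523. A change that misses the threshold is not shown to be absent, and the SE of both genes was about as large as that of the called genes.

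Over both genotypes, the libraries of the sorts did not overlap for 4 of the 6 genes, Myc, Mxi1, Mxd4 and Mxd1, against 22.9% of all genes tested. Within a genotype, where 2 libraries face 2, they did not overlap for 5 of 6 genes in labelled dKO cells, against 50.9% of all genes, and for 5 of 6 in WT, against 63%. In bulk RNA, a smaller share of cells with a transcript and less of it in each cell cannot be told apart. Several other measures moved with the Tim3 sort. Ribosomal RNA, counted as Rn45s and Rn18s, made up 7.88% and 8.36% of all counts in labelled dKO PD1+Tim3+ and 6.52% and 7.46% in WT PD1+Tim3+, against 2.00% and 1.60% in labelled dKO PD1+Tim3- and 2.37% and 2.36% in WT PD1+Tim3-. Summed over the 4 globin genes of the erythroid list, the level was 33.1 to 109 CPM in labelled dKO PD1+Tim3+ and 6.21 to 33.0 CPM in WT PD1+Tim3+, against 3.67 to 3.80 CPM in labelled dKO PD1+Tim3- and 3.52 to 7.82 CPM in WT PD1+Tim3-. The 3 genes of the CD4 T cell list summed to 13.5 to 15.5 CPM and 7.14 to 7.31 CPM in the labelled dKO and WT PD1+Tim3+ libraries, against 5.61 to 6.82 CPM and 4.69 to 5.18 CPM in the labelled dKO and WT PD1+Tim3- libraries. Cd40lg, the CD40 ligand of activated T cells, averaged 13.4 ± 0.597 and 4.81 ± 0.0671 CPM in labelled dKO and WT PD1+Tim3+, against 5.07 ± 0.256 and 4.55 ± 0.603 CPM in labelled dKO and WT PD1+Tim3- (SD, n = 2). Foxp3, the factor of regulatory T cells, averaged 1.11 ± 0.793 and 2.42 ± 0.188 CPM in labelled dKO and WT PD1+Tim3+, against 0.887 ± 0.230 and 0.317 ± 0.155 CPM in labelled dKO and WT PD1+Tim3-. In WT the sum was thus higher mainly by Foxp3 and in labelled dKO cells by Cd40lg, while Cd4 was at 0 CPM in all 4 PD1+Tim3+ libraries and at 0.525 CPM or less in the others. Of the NK cell list, Fcer1g, a signalling chain of NK and myeloid cells, averaged 4.91 ± 1.15 and 10.2 ± 0.929 CPM in labelled dKO and WT PD1+Tim3+, against 0.543 ± 0.768 and 2.95 ± 0.654 CPM in labelled dKO and WT PD1+Tim3-. The list did not move as a whole. Eomes, which made up most of its sum, had slightly lower means in PD1+Tim3+ cells of both genotypes, and its sorts overlapped. Klrb1c had higher means in PD1+Tim3+ cells of both genotypes, and Ncr1 was nearly absent, with levels given below. Pecam1 averaged 23.8 ± 4.19 and 22.8 ± 0.718 CPM in labelled dKO and WT PD1+Tim3+, against 26.2 ± 6.67 and 33.9 ± 3.68 CPM in labelled dKO and WT PD1+Tim3-. The part of these measures in the network genes was not tested.

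**Figure D2:**
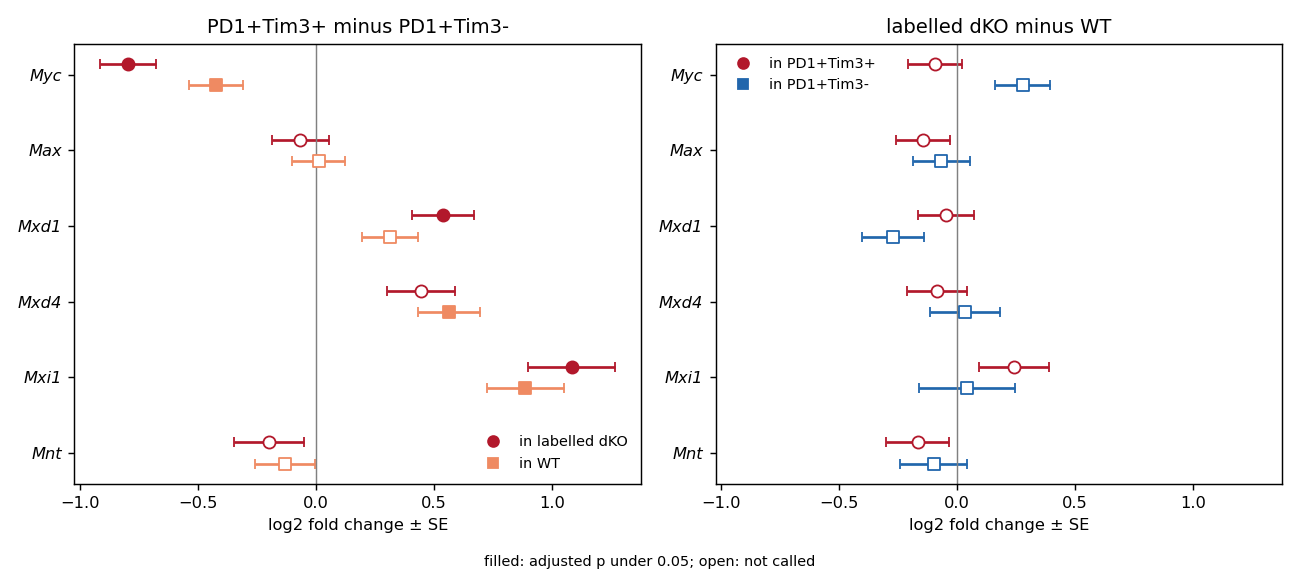
Log2 fold changes with SE of the 6 genes, on the left for PD1+Tim3+ minus PD1+Tim3- in each genotype and on the right for labelled dKO minus WT in each sort, filled where the adjusted p is under 0.05. Myc lies at -0.79 and -0.42 and Mxi1 at 1.08 and 0.89 on the left, and all 12 symbols on the right are open.

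Within a library the 6 genes can be set against each other without any scaling between libraries. Myc made up 17.6% (exact 95% interval 15.8 to 19.5) and 18.8% (16.9 to 20.7) of the summed counts of the 6 genes in labelled dKO PD1+Tim3+, and 16.9% (15.3 to 18.7) and 19.8% (18.6 to 21.0) in WT PD1+Tim3+. In PD1+Tim3- cells it made up 32.8% (30.5 to 35.0) and 30.4% (26.6 to 34.3) in the labelled dKO libraries and 25.1% (23.3 to 27.1) and 27.6% (25.4 to 30.0) in WT. The intervals cover counting error only, and none of the PD1+Tim3+ libraries reached the range of the PD1+Tim3- libraries. Counts of Myc per summed count of Mxd1, Mxd4, Mxi1 and Mnt were 0.301 and 0.331 in labelled dKO PD1+Tim3+ and 0.299 and 0.354 in WT PD1+Tim3+, against 0.759 and 0.718 in labelled dKO PD1+Tim3- and 0.523 and 0.608 in WT PD1+Tim3-. The ratio was thus lower in each PD1+Tim3+ library than in any PD1+Tim3- library, and the genotypes stood apart in PD1+Tim3- cells and overlapped in PD1+Tim3+ cells. With 2 libraries a group, the genotypes stood apart for 41.3% of all genes tested in PD1+Tim3- cells. These ratios are built from the genes described above and carry no test.

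**Figure D3:**
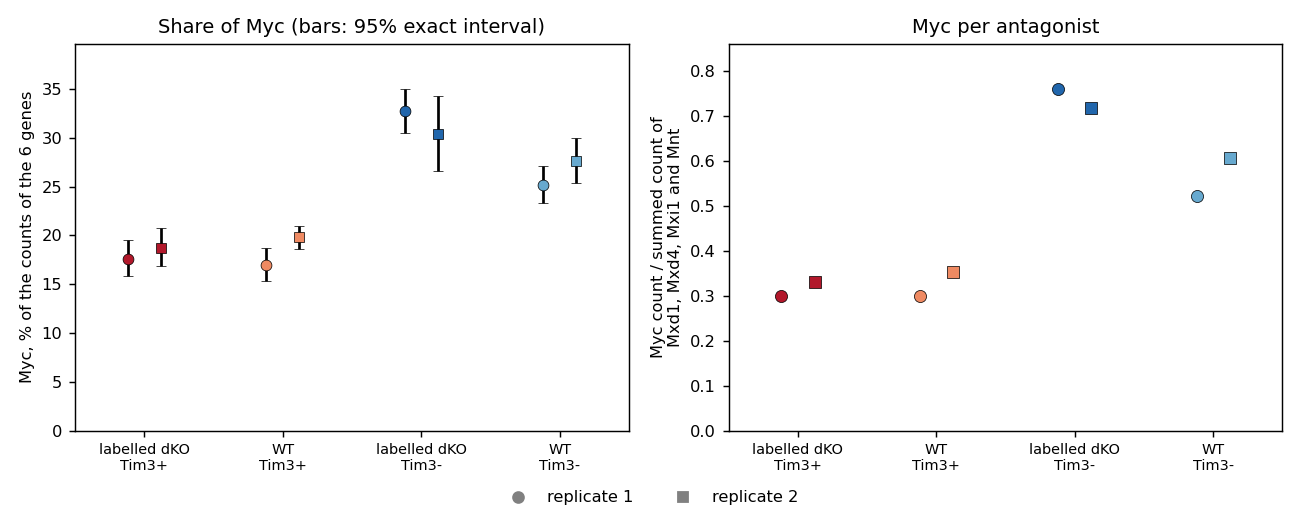
Myc as a percentage of the counts of the 6 genes with exact 95% intervals (left), and the Myc count divided by the summed count of Mxd1, Mxd4, Mxi1 and Mnt (right), in each library. The ratio is 0.299 to 0.354 in the 4 PD1+Tim3+ libraries and 0.523 to 0.759 in the 4 PD1+Tim3- libraries.

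Against Mxi1 alone, there were 1.99 and 2.32 counts of Myc per count of Mxi1 in labelled dKO PD1+Tim3+ and 2.51 and 2.87 in WT PD1+Tim3+, against 7.49 and 9.61 in labelled dKO PD1+Tim3- and 5.91 and 7.74 in WT PD1+Tim3-. Levels of different genes were compared per kilobase of exon, with exonic lengths from GENCODE M21. Each length joined the exons of all transcripts of a gene, from 2717 bases for Myc to 8483 bases for Mxd4. Which transcripts these cells use was not measured, so the ranks between genes hold for these lengths only. In PD1+Tim3+ cells Myc and Max were the most abundant and close to each other, at 20.6 ± 0.323 and 20.7 ± 0.112 CPM per kilobase in labelled dKO cells and at 21.9 ± 1.00 and 23.0 ± 2.81 in WT (SD, n = 2). In PD1+Tim3- cells Myc led, with 35.4 ± 2.84 CPM per kilobase against 21.8 ± 1.37 for Max in labelled dKO cells and 29.6 ± 3.31 against 22.7 ± 1.07 in WT. Mxd1 came next in all 4 groups by its mean, from 6.53 CPM per kilobase in labelled dKO PD1+Tim3- to 10.1 in WT PD1+Tim3+. In labelled dKO PD1+Tim3- cells it was level with Mnt, at 6.53 ± 1.05 against 6.50 ± 0.373 CPM per kilobase. Mxd4 and Mnt exchanged places between the sorts: Mxd4 had 6.62 and 7.04 CPM per kilobase in labelled dKO and WT PD1+Tim3+ and 5.0 and 4.76 in labelled dKO and WT PD1+Tim3-, and Mnt had 5.73 and 6.49 in PD1+Tim3+ and 6.50 and 7.04 in PD1+Tim3-. The pair overlapped within their spread in PD1+Tim3+ cells of both genotypes. Mxi1 was last throughout, at 1.69 to 3.82 CPM per kilobase by group mean. Without division by length the order differed. In CPM, Mxd1 averaged 68.7 and 71.3 in labelled dKO and WT PD1+Tim3+ cells, above Myc at 55.9 and 59.6. In WT PD1+Tim3- cells Max averaged 81.6 CPM and Myc 80.3 CPM. Mxd4 had a higher mean CPM than Mnt in both sorts of both genotypes.

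Between the genotypes, none of the 6 genes was called in either sort. In PD1+Tim3+ cells 0 of 6 passed at an adjusted p and 0 at an unadjusted p under 0.05, against 0.627% and 12% of all genes with edgeR, and neither DESeq2 nor limma-voom called any. The largest change there was that of Mxi1, 0.24 ± 0.15 with adjusted p 0.574, followed by Mnt at -0.17 ± 0.13, adjusted p 0.684. In PD1+Tim3- cells 0 of 6 passed by edgeR, DESeq2 or limma-voom, and 0.0459% of all genes were called by edgeR. Myc was the 1 gene with an unadjusted p under 0.05 there, at 101.7 and 90.8 CPM in labelled dKO against 73.9 and 86.7 CPM in WT libraries. The labelled dKO libraries were both above the WT libraries, as groups of 2 do not overlap for 41.3% of all genes, with a change of 0.28 ± 0.12, unadjusted p 0.0358 and adjusted p 0.581, where 8.27% of all genes had an unadjusted p that low. In PD1+Tim3+ cells the change of Myc was -0.09 ± 0.12, adjusted p 0.828. Mxd1 was at -0.27 ± 0.13 in PD1+Tim3- cells, adjusted p 0.627, and -0.05 ± 0.12 in PD1+Tim3+ cells, adjusted p 0.942.

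Averaged over both sorts, a comparison added after the data were seen, 0 of 6 genes passed with edgeR, DESeq2 or limma-voom, while edgeR called 0.864% of all genes. At an unadjusted p under 0.05 there were 0 of 6, against 8.89% of all genes. The changes ran from -0.16 ± 0.09 for Mxd1 to 0.14 ± 0.13 for Mxi1. The interaction, which tests whether the genotype difference depends on the sort, called 0 of 6 genes and 0% of all genes with edgeR, against 1320 genes, or 10.1%, at an unadjusted p under 0.05 and 109 genes called by DESeq2, none of them a member. Myc had the largest interaction of the 6, -0.37 ± 0.16, with an unadjusted p of 0.0438 and an adjusted p of 0.479. The larger drop of Myc between the sorts in labelled dKO cells than in WT therefore did not pass as a difference. The other 5 had interactions from -0.12 ± 0.19 for Mxd4 to 0.22 ± 0.18 for Mxd1. The 4 genes of the NK cell list summed to 41.4 to 46.4 CPM in labelled dKO and 77.8 to 82.8 CPM in WT PD1+Tim3+ libraries, and to 39.3 to 43.0 CPM in labelled dKO and 65.0 to 72.1 CPM in WT PD1+Tim3- libraries. Most of that sum was Eomes, a factor that CD8 T cells also make, and Fcer1g had the levels given above. Klrb1c, the NK1.1 receptor, averaged 7.97 ± 1.27 CPM in labelled dKO against 13.2 ± 1.52 CPM in WT PD1+Tim3+ cells. In PD1+Tim3- cells it averaged 6.58 ± 0.346 CPM in labelled dKO against 6.61 ± 0.908 CPM in WT (SD, n = 2). Ncr1 was at 0 CPM in 7 of 8 libraries and at 0.214 CPM in the other. Whether this list bears on the genotype values was not tested.

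The remaining genes of the extended network are Mga, Mlx, Mlxip, Mlxipl, Mxd3, Mycn and Mycl, of which 5 were tested. None of the 5 was called between the sorts in either genotype by edgeR or DESeq2. Limma-voom called 0 in labelled dKO cells and 1 in WT, lower, where it called 1226 of 13073 genes lower. At an unadjusted p under 0.05 with edgeR, 1 of 5 was higher in the labelled dKO cells, against 23.7% of all genes in either direction, and 1 was higher and 1 lower in WT, against 31.6%. The 4 with the largest changes were the same in both genotypes, Mxd3, Mlx, Mga and Mycl, and ran from -0.25 ± 0.43 for Mycl to 0.75 ± 0.42 for Mxd3 in labelled dKO cells and from -0.30 ± 0.10 for Mga to 1.07 ± 0.41 for Mxd3 in WT. Over both genotypes 3 of 5 were called by edgeR, against 22.8% of all genes. DESeq2 called 0 of 5, against 903 higher and 928 lower of all 13073 genes. In edgeR's average Mxd3, a member of the MXD family tied to cycling cells, rose by 0.91 ± 0.29, adjusted p 0.0462, and Mlx, the MAX-like partner of glucose-sensing factors, by 0.36 ± 0.10, adjusted p 0.0228. Mga, a MAX partner of a repressive complex, fell by 0.27 ± 0.08, adjusted p 0.0263. Mxd3 was scarce, at 6.12 ± 0.229 and 3.96 ± 0.555 CPM in labelled dKO and WT PD1+Tim3+ cells, against 4.42 ± 2.66 and 1.83 ± 0.830 CPM in labelled dKO and WT PD1+Tim3- cells (SD, n = 2). The related Mycn was not tested, with at most 10 counts in a library.

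Part of the genes that MYC is known to raise for the nucleolus and translation fell in PD1+Tim3+ cells. Of 19 such genes, 8 fell and 0 rose in labelled dKO cells, with a median change of -0.45, and 9 fell and 0 rose in WT, with a median of -0.42, while the median of all genes tested was 0.01 in both genotypes. The negative side held 19 of 19 genes in labelled dKO cells and 17 of 19 in WT, while 51% and 51.2% of all genes lay above 0. By the called share, 4.72% of all genes fell in labelled dKO cells and 8.76% in WT. DESeq2 called 4 lower in labelled dKO cells and 8 in WT, against 514 and 828 of all 13073 genes. Limma-voom called 9 in each, against 549 and 1226. Genes called in both genotypes were Ddx21, Dkc1, Mybbp1a, Nolc1 and Nop56, which is 5 of the 8 in labelled dKO cells and 5 of the 9 in WT. Over both genotypes 13 of 19 fell, and 10.6% of all genes fell.

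Dkc1, which encodes the pseudouridine synthase of small nucleolar particles, had a group mean of 256 ± 65.1 CPM in labelled dKO PD1+Tim3+ against 534 ± 14.3 CPM in labelled dKO PD1+Tim3- (SD, n = 2), and of 339 ± 107 against 628 ± 258 CPM in WT. It fell by 1.06 ± 0.28, adjusted p 0.0386, and by 0.89 ± 0.28, adjusted p 0.0496, and the WT libraries varied widely. Nolc1, a nucleolar chaperone of those particles, stood at 111 and 132 CPM in labelled dKO PD1+Tim3+ against 170 and 162 CPM in labelled dKO PD1+Tim3-, and at 107 and 115 CPM in WT PD1+Tim3+ against 193 and 174 CPM in WT PD1+Tim3-. Its sorts did not overlap in any library pair. Nolc1 fell by 0.45 ± 0.12 in labelled dKO cells, adjusted p 0.0404, and by 0.72 ± 0.12 in WT, adjusted p 0.00337. Polr1b, a core subunit of RNA polymerase I, fell by 0.72 ± 0.16 in labelled dKO cells, adjusted p 0.0204, and Ncl, the gene of nucleolin, by 0.73 ± 0.14 in WT, adjusted p 0.00559. Mybbp1a fell by 0.56 ± 0.11 and Nop2, an RNA methyltransferase gene, by 0.53 ± 0.14 in labelled dKO cells, adjusted p 0.0125 and 0.0352, and Gnl3, the gene of nucleostemin, by 0.60 ± 0.13 in WT, adjusted p 0.0105. The share of counts on Rn45s and Rn18s was larger in PD1+Tim3+ cells, as given above, and its bearing on these genes was not tested.

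**Figure D4:**
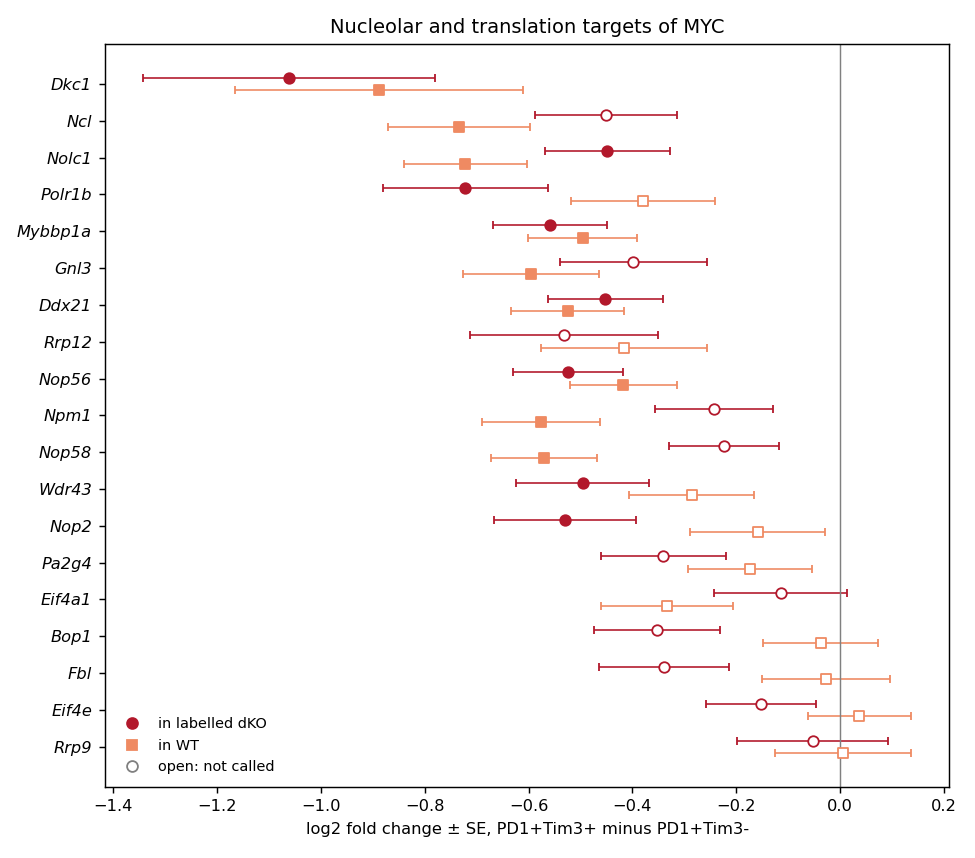
Log2 fold change with SE of 19 nucleolar and translation genes that MYC is known to raise, PD1+Tim3+ minus PD1+Tim3-, with circles for labelled dKO and squares for WT, filled where called. The labelled dKO symbols all lie below 0, 8 of them filled, and 17 of the 19 WT symbols lie below 0, 9 of them filled.

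By edgeR, targets in metabolism and transport had 1 call in labelled dKO cells and calls in both directions in WT, while DESeq2 called no rise. Of 20 genes, 0 rose and 1 fell in labelled dKO cells, against 9.93% of all genes called, with a median of -0.09, and 2 rose and 2 fell in WT, against 17%, with a median of 0.10. Over both genotypes 2 rose and 3 fell, against 22.8%. DESeq2 called 0 higher and 0 lower in labelled dKO cells, 0 and 1 in WT, and 0 and 2 over both genotypes. Limma-voom called 0 and 2, 2 and 2, and 3 and 3 in the same order. Of 13073 genes, DESeq2 called 426 higher and 514 lower in labelled dKO cells, 486 and 828 in WT, and 903 and 928 over both. For limma-voom these were 572 and 549, 1147 and 1226, and 1567 and 1451. Apex1, a DNA repair nuclease, fell by 0.54 ± 0.13 in labelled dKO cells, adjusted p 0.0258 with edgeR. In WT, Hspe1, a mitochondrial chaperonin, fell by 0.71 ± 0.14, adjusted p 0.00678, and Cad, which starts pyrimidine synthesis, by 0.47 ± 0.14, adjusted p 0.0421. The glucose transporter gene Slc2a1 rose by 0.49 ± 0.13 in WT, adjusted p 0.0268, and Mthfd2, of the mitochondrial folate pathway, by 0.37 ± 0.11, adjusted p 0.0445. Over both genotypes the glycolytic hexokinase gene Hk2 rose by 0.33 ± 0.10, adjusted p 0.0414. Of the genes with a promoter in the table, 6 of 16 in this list, 5 of 15 in the nucleolar list, 1 of 7 in the cell cycle and transcription list and 1 of 7 in the list that MYC represses held the E-box, against 8.09% of all genes. It was also in 3 of 5 dendritic cell markers, in 2 of 7 other genes of the network, in 1 of 14 cofactor genes, in 0 of 10 turnover genes and in 1 of 11 genes upstream of Myc, but in none of the other marker lists, and no test was made of these shares.

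Among 9 targets in the cell cycle and transcription, 3 rose and 1 fell in each genotype, the same 4 genes in both. Over all genes 5.21% rose and 4.72% fell in labelled dKO cells, and 8.25% rose and 8.76% fell in WT. DESeq2 called 1 higher and 1 lower in each genotype. Of all 13073 genes it called 426 higher and 514 lower in labelled dKO cells and 486 and 828 in WT. Over both genotypes 3 rose and 2 fell, against 22.8% of all genes called. E2f1, E2f2 and Mcm5, which drive and carry out DNA replication, rose in both genotypes, E2f2 by 0.92 ± 0.18 in labelled dKO cells, adjusted p 0.0111, and by 0.97 ± 0.17 in WT, adjusted p 0.00396. Ccne1, the gene of cyclin E1, fell by 1.05 ± 0.27, adjusted p 0.0357, and 1.31 ± 0.27, adjusted p 0.00768. It averaged 94.7 ± 30.7 CPM in labelled dKO PD1+Tim3+ against 197 ± 20.1 CPM in labelled dKO PD1+Tim3- cells (SD, n = 2). In WT it averaged 88.8 ± 8.50 against 220 ± 94.6 CPM, and the WT PD1+Tim3- libraries lay far apart, at 153 and 287 CPM. Tfap4, a direct MYC target that is known to sustain clonal growth of activated CD8 T cells, had 6.58 ± 0.167 CPM in labelled dKO PD1+Tim3+ against 10.8 ± 0.383 CPM in labelled dKO PD1+Tim3- cells, and 7.04 ± 0.341 against 9.64 ± 0.441 CPM in WT (SD, n = 2). It was not called in either genotype alone, adjusted p 0.0587 and 0.121, and fell by 0.58 ± 0.14 over both, adjusted p 0.0123.

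Of 9 genes that MYC is known to repress, 7 were tested, and 2 rose and 0 fell in each genotype, where 5.21% of all genes rose in labelled dKO cells and 8.25% in WT. The medians were 0.02 in labelled dKO cells and 0.07 in WT. Cdkn1a, which encodes the cell cycle inhibitor p21 and is repressed by MYC through MIZ1, had 218 and 234 CPM in labelled dKO PD1+Tim3+ against 82.0 and 67.2 CPM in labelled dKO PD1+Tim3-, and 155 and 167 CPM in WT PD1+Tim3+ against 62.7 and 68.2 CPM in WT PD1+Tim3-. All 4 PD1+Tim3+ libraries were far above the others. Cdkn1a rose by 1.58 ± 0.13, adjusted p 3.75e-05, and by 1.30 ± 0.12, adjusted p 1.53e-04. Btg2, an antiproliferative gene, rose by 0.65 ± 0.12, adjusted p 0.00905, and 0.51 ± 0.12, adjusted p 0.0136. Over both genotypes 3 rose and 1 fell, against 22.8% of all genes called: besides these, Gadd45g rose by 0.45 ± 0.14, adjusted p 0.0406, and Gadd45a fell by 0.26 ± 0.09, adjusted p 0.0488, both stress-response genes. DESeq2 called 2 higher and 0 lower in that comparison, against 903 higher and 928 lower of all 13073 genes.

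Of 16 genes of MYC cofactors and the SIN3 corepressor, 1 fell in labelled dKO cells, where 9.93% of all genes were called. It was Ruvbl1, a helicase of chromatin complexes, which fell by 0.48 ± 0.13, adjusted p 0.0467 with edgeR. That call was edgeR's alone, as no gene of this list passed in labelled dKO cells by DESeq2 or by limma-voom. None was called in WT by edgeR, DESeq2 or limma-voom, where edgeR called 17% of all genes. At an unadjusted p under 0.05 with edgeR, 1 was higher and 2 lower in WT, against 31.6% of all genes. The 4 largest changes in WT were 0.40 ± 0.16 for Sap30, -0.37 ± 0.12 for Trrap, -0.25 ± 0.11 for Sin3a and 0.25 ± 0.13 for Ruvbl2. Over both genotypes 2 of 16 were called by edgeR, against 22.8% of all genes. DESeq2 called 0 of 16, against 903 higher and 928 lower of all 13073 genes. In edgeR's average Ruvbl1 and Trrap, the scaffold that joins MYC to acetyltransferases, fell by 0.30 ± 0.09 and 0.33 ± 0.09, adjusted p 0.0368 and 0.0202. Of 11 genes of MYC protein turnover, 1 fell in each genotype with edgeR, against 9.93% of all genes called in labelled dKO cells and 17% in WT. DESeq2 and limma-voom each called 0 of the 11 in labelled dKO cells, against 514 and 549 of 13073 genes called lower. Usp28, a deubiquitinase that stabilises MYC, fell by 0.64 ± 0.17 in labelled dKO cells, adjusted p 0.0386, and the ubiquitin ligase gene Huwe1 by 0.45 ± 0.12 in WT, adjusted p 0.0225. Both fell over both genotypes, adjusted p 0.00501 and 0.0179, which is 2 of 11, against 22.8%. The counts measure transcripts, and MYC protein was not measured.

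Of 12 genes upstream of Myc in T cells, 3 rose and 2 fell in labelled dKO cells, against 9.93% of all genes called, and 2 rose and 3 fell in WT, against 17%. Over both genotypes 2 rose and 3 fell, against 22.8%. Those shared by both genotypes were Il2ra and Il2rb, subunits of the interleukin-2 receptor, which rose, and Tcf7 and Lef1, factors of the stem-like state and of WNT signals, which fell. Il2ra rose by 0.79 ± 0.10 in labelled dKO cells, adjusted p 0.00150, and by 0.77 ± 0.10 in WT, adjusted p 0.00133. Tcf7 fell by 0.87 ± 0.11, adjusted p 0.00123, and by 0.80 ± 0.11, adjusted p 0.00169. Il7r, the interleukin-7 receptor, fell by 0.48 ± 0.12 in WT, adjusted p 0.0184, and had a change of 0.01 ± 0.12 in labelled dKO cells, adjusted p 0.971. Between the genotypes it was the 1 gene called, by edgeR, DESeq2 and limma-voom alike, of the lists of network, cofactor, turnover, target, repressed and upstream genes. The call was in PD1+Tim3+ cells, where edgeR called 0.627% of all genes, and over both sorts, where it called 0.864%. Calls in the marker lists of other cells were not counted. Il7r had 200.2 ± 9.80 CPM in labelled dKO against 116 ± 11.4 CPM in WT PD1+Tim3+ cells (SD, n = 2), a rise of 0.80 ± 0.12, adjusted p 0.0136.

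The genes with the profile most like that of Myc were found by the root mean square difference of log2 CPM over the 8 libraries, each gene centred on its mean. They were Adk, which phosphorylates adenosine, at 0.0896, Tfap4 at 0.0958 and Naa25, a subunit of an N-terminal acetyltransferase, at 0.0988, against a median of 0.409 over all genes tested. The nearest genes were picked for a small distance, so they lie below the median by that choice. Tfap4 is also on the list of targets in the cell cycle and transcription. For Mxi1 they were Gna15 at 0.113, Plk4 at 0.127 and Foxd2os at 0.130, with a median of 0.581. Nearest to Mxd1 were Slc10a7, the chemokine gene Ccl4 and Dnajc1, at 0.0806 to 0.0823, and to Mxd4 Ostf1, LOC102633627 and Lpxn, at 0.0464 to 0.0579. Max was closest to Ppcdc, Rfwd2 and Rsl24d1, at 0.0406 to 0.0457, and Mnt to Hbp1, Vav1 and Ranbp10, at 0.0360 to 0.0548. Max and Mnt vary little, over 0.28 and 0.45 log2 units between their lowest and highest library, so small distances there are easier to reach.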

How the data were processed

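The authors deposited raw counts per gene symbol in 1 table for the 8 libraries, and the file header names each library. The submitters' processing notes name mm10, cutadapt 1.18 and Bowtie2 2.2.5, with no role or order. The sources used here name no counting tool, annotation, strand setting or rule for reads with several matches. PD1+Tim3- columns are named for PD1 alone and were assigned because the Tim3+ columns are named separately. A line with no gene name, which repeats the sum of its column (100% of it), was left out.

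Counts were tested in R 4.3.3 with edgeR 4.0.16: TMM scaling, its default low-count filter, 1 fit of 4 group means over the 8 libraries with 4 residual degrees of freedom, and the quasi-likelihood F test, adjusted by Benjamini-Hochberg over 13073 genes. SE is the log2 fold change divided by the root of F. Alternatives used DESeq2 1.42.0, limma-voom (limma 3.58.1), other size factors, no filter, a block for the replicate number and each library left out. With 2 mice a group, p-values assume that all groups vary alike. Between the 2 libraries of a group, chi-square per gene, which also grows with depth, was 10.3 in labelled dKO PD1+Tim3+, 3.14 in WT PD1+Tim3+, 3.10 in labelled dKO PD1+Tim3- and 16.1 in WT PD1+Tim3-. The groups thus did not vary alike by this measure, and all 8 libraries were kept as separate samples. CPM are counts on TMM-scaled library sizes, and ribosomal and network shares are of raw counts. The edgeR fit was run on simulated data in which each gene had the same spread in all groups, so unequal spread between groups was not covered.

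The 6 genes, the gene lists and the 4 simple contrasts and interaction were chosen with earlier results of these data known, and both averaged contrasts were added after seeing the data. Listed genes were picked per comparison if called, or, where over 4 or none were called, as the 4 with the largest change. Between the genotypes and for the interaction, lists with no call are not named gene by gene. The 3 nearest profiles are given per member. Some named genes fall outside that rule and were chosen after their values were seen: Cd8a, Cd3e, the markers of other cells, Mycn, Nolc1 and Il7r in labelled dKO cells, and Tfap4 in each genotype. Positions come from GENCODE M21 on GRCm38.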

Additional observations from a re-analysis of the deposited data

How the results depend on the processing

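Of 872 values recomputed under alternatives, 785 kept their direction and their side of the threshold or stayed within the limits set for counts. The calls of Myc, Mxi1, Mxd4 and Mxd1 over both genotypes held in each of them, with the largest adjusted p at 0.00602, 0.00291, 0.0458 and 0.0288. With 1 library left out, members called ran from 1 to 3 in the labelled dKO cells, the lowest without labelled dKO PD1+Tim3- replicate 1, and from 0 to 3 in WT, 0 without WT PD1+Tim3+ replicate 1 and 1 without its replicate 2. DESeq2 called 1 member in WT, Mxi1. Genes called between the sorts, 1298 in labelled dKO cells, 2223 in WT and 2978 over both, ran over 119 to 1376, 426 to 2763 and 1618 to 3360 with a library left out, the lowest without labelled dKO PD1+Tim3- replicate 1, WT PD1+Tim3+ replicate 1 and labelled dKO PD1+Tim3- replicate 1. DESeq2 called 1314 in WT and 1831 over both. Genes called between labelled dKO and WT, 82 in PD1+Tim3+, 6 in PD1+Tim3- and 113 over both, ran over 6 to 405, 0 to 27 and 36 to 131 with a library left out, and were 486, 232 and 269 without the low-count filter. The count of 405 is without labelled dKO PD1+Tim3+ replicate 1, and limma-voom called 0 in PD1+Tim3-. For the interaction the count was 0 to 309 with a library left out, the highest without labelled dKO PD1+Tim3+ replicate 1, 109 with DESeq2 and 331 without the filter.

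The sign of small changes that were not called turned with a library left out. Between the genotypes in PD1+Tim3+ cells the range was -0.14 to 0.039 for Mxd1 and -0.23 to 0.052 for Mxd4. In PD1+Tim3- cells it was -0.12 to 0.016 for Max, -0.098 to 0.24 for Mxd4 and -0.33 to 0.19 for Mxi1. Over both sorts it was -0.10 to 0.075 for Mxd4 and -0.045 to 0.21 for Mxi1. For the interaction it was -0.21 to 0.044 for Max, -0.33 to 0.024 for Mxd4 and -0.21 to 0.064 for Mnt. Between the sorts Max ranged from -0.11 to 0.14 in WT and from -0.090 to 0.035 over both genotypes. The medians of the other network genes and of the repressed genes were 0.32 in PD1+Tim3+ between the genotypes and 0.29 between the sorts in WT without the filter, which tests more genes of those lists.

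Replicate numbers are shared by the groups, and the labels do not state whether same-numbered sorts came from the same mouse. Deviations of same-numbered libraries correlated at r of -0.18 to 0.02 across genes. Between the 2 sorts r was -0.045 in labelled dKO cells and -0.017 in WT. With 2 libraries a group, these values cannot decide whether the libraries are paired. With the number as a replicate block, genes called were 40, 0 and 69 between labelled dKO and WT in PD1+Tim3+, in PD1+Tim3- and over both sorts, and 716 between the sorts in labelled dKO cells. Mxd1 in labelled dKO cells then had an adjusted p of 0.0526, or 0.0618 with the block within each genotype, and no other member call changed. Depth limits Mxi1 most, with 18 counts in the smallest library.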
